A study of Mus musculus with 16 samples.

Results

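Gata2, Gata3, Elf3, Elf5, Ehf, Grhl2, Pax2 and Pax8 are transcription factor genes expressed in the collecting duct, and several of them in other tubule cells as well. These 8 genes were taken by symbol from a table of 28971 genes counted in whole mouse kidney, and all 8 passed the filter on low counts. Mice with doxycycline-inducible loss of Hes1 in kidney tubules were compared with control littermates, and no member of the group rose or fell past the threshold.

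Hes1 cKO (conditional knockout) mice had floxed alleles of Hes1 on both chromosomes together with the transgenes Pax8-rtTA and TRE-Cre. Here the Pax8 promoter expresses a doxycycline-dependent activator, which switches on Cre recombinase, which excises Hes1 in tubule epithelium along the nephron as well as in the collecting duct. Controls are labelled as wild type littermates, and whether any of them carried a transgene or a floxed allele is not stated. Both groups drank doxycycline at 1 mg/mL with 5% sucrose for 1 week from 3 weeks of age. Titles exist for 7 Hes1 cKO animals, of which 3 are male and 4 female, and for 9 controls, of which 6 are male and 3 female; the description of the design swaps the sizes of the groups. The 7 libraries used here are the 3 Hes1 cKO and 4 control libraries of the table whose column names show the genotype, and the numbers given to them below only name columns. Nothing says how these columns match the titled animals, so p-values measure the spread between these libraries.

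In the collecting duct, principal cells reabsorb water and salt, intercalated cells handle acid and base, and Notch signalling, in which Hes1 acts as a repressor, favours the principal cell fate. Pax2 and Pax8 are paired-box factors that start the kidney lineage and stay on in tubules, and Gata3 acts with them in the nephric duct. Gata2 maintains expression of the water channel gene Aqp2 in the adult duct. Elf3, Elf5 and Ehf are ETS factors restricted to epithelia, of which Elf5 is a principal cell gene, and Grhl2 is a grainyhead-like factor that keeps the duct epithelium tight.

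Repressors of the Hes family bind the N-box, CACNAG, and the class C site, CACGNG, so the promoters of the genes were read for these letters on both strands. The sequence CACGAG fits both motifs. RefSeq promoters on GRCm38.p6, reaching from 250 bases before to 50 bases after an annotated start, were at hand for 6 of the genes (10 promoters), and Ehf and Grhl2 had none in the table. The N-box occurred in 3 of the 10 (30%), against 42.5% of all 32851 promoters of this length, and the class C site occurred in 0 of the 10, against 27.5% of all. Promoters with either motif, counted once, made up 56.3% of all. The 4 matches are shown in windows of 30 bases on the strand of the gene, with the match in capitals, because they are all the occurrences of the N-box in these promoters.
Gata2, chr6:88193867-88193896, plus strand: gcgggggccccaCTGGTGaccgccgcggcc
Gata3, chr2:9878677-9878706, minus strand: ggttgcagtttcCTTGTGctgaggatcgtg
Gata3, chr2:9878615-9878644, minus strand: cggcgcggatgaCACTAGaacctccttaag
Elf3, chr1:135258539-135258568, minus strand: catccaatgagcCACCAGctcaggttacaa
CTGGTG and CTTGTG are the N-box read on the opposite strand. The Gata2 match begins 12 bases before the RefSeq start, the Gata3 matches 94 and 32 bases before it and the Elf3 match 84 bases before it. By GENCODE M21, however, the Gata3 and Elf3 matches lie inside the coordinates of those genes. Of the 250 bases before the RefSeq start, 250 are annotated exon for Gata3 and 96 for Elf3, and 0 for this Gata2 promoter. A match describes the letters and is no evidence of binding.

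The promoter of Pax8 is shown because that gene gives its name to the driver of the deletion; which fragment the transgene holds is not stated. Its 250 bases before the start held neither motif, so no letter is in capitals.
Pax8, chr2:24475600-24475849, minus strand: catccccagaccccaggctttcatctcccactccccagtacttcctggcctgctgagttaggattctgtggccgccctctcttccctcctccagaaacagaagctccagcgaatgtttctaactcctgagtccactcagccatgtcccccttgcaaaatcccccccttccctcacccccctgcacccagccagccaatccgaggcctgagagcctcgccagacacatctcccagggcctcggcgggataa

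Total counts were 16973931 to 20420422 per library. Hes1 itself was at 19.8, 17.2 and 17.5 CPM (read counts scaled to a common library size with the TMM method) in Hes1 cKO 1 to 3, and at 42.8 to 67.6 CPM in the controls. It differed by -1.61 ± 0.16 (SE) on the log2 scale with an edgeR adjusted p of 0.00357, and reads on exons outside the deleted part may still be counted. Of 15615 genes tested with edgeR's quasi-likelihood method, 53 (0.339%) were called at a Benjamini-Hochberg adjusted p under 0.05, 50 of them (0.32%) higher and 3 (0.0192%) lower in Hes1 cKO. The tissue carried its defining tubule markers, with Lrp2 of the proximal tubule at 1568 to 2099 CPM and Umod of the thick ascending limb at 2622 to 3394 CPM. RNA of adrenal and sympathetic genes was uneven: the sum of 8 such genes was 907 CPM in Hes1 cKO 3, 664 CPM in control 1 and 176 CPM in control 2, and 2.67 to 40.5 CPM in the other 4 libraries. Xist was high in Hes1 cKO 3, control 3 and control 4 (333 to 367 CPM) and at most 0.371 CPM in the rest. The Y chromosome gene Ddx3y ran the other way, with 0, 0 and 1 reads in those libraries and 661 to 1249 reads in the rest.

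None of the 8 genes was called by edgeR's test over all genes, where 0.339% of all genes were, and 0 of the 8 had an unadjusted p under 0.05, where 5.95% of all genes did (3.34% higher in Hes1 cKO). With DESeq2, limma-voom and edgeR without a low-count filter, which called 0.716%, 0.327% and 0.352% of all genes, the count of called members was again 0. Under each of those settings Grhl2 was the single member with an unadjusted p under 0.05 (0.0450, 0.0438 and 0.0312). Log2 fold changes (Hes1 cKO minus control) ranged from -0.17 to 0.36. They were above 0 for 7 of 8 genes, with a median of 0.20, beside 48.4% of all tested genes and a median of -0.0064. Every one of the 8 intervals at 95% confidence contained 0 and excluded a change of 2-fold in either direction, and 4 of them, for Gata2, Elf3, Ehf and Pax2, also excluded a change of 1.5-fold. For comparison within the same libraries, Foxi1, the intercalated cell transcription factor, rose by 1.87 and Hsd11b2, a principal cell enzyme gene, fell by 1.12 on the log2 scale. Whole kidney RNA does not tell fewer cells of a type from less RNA per cell.

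**Figure D1:**
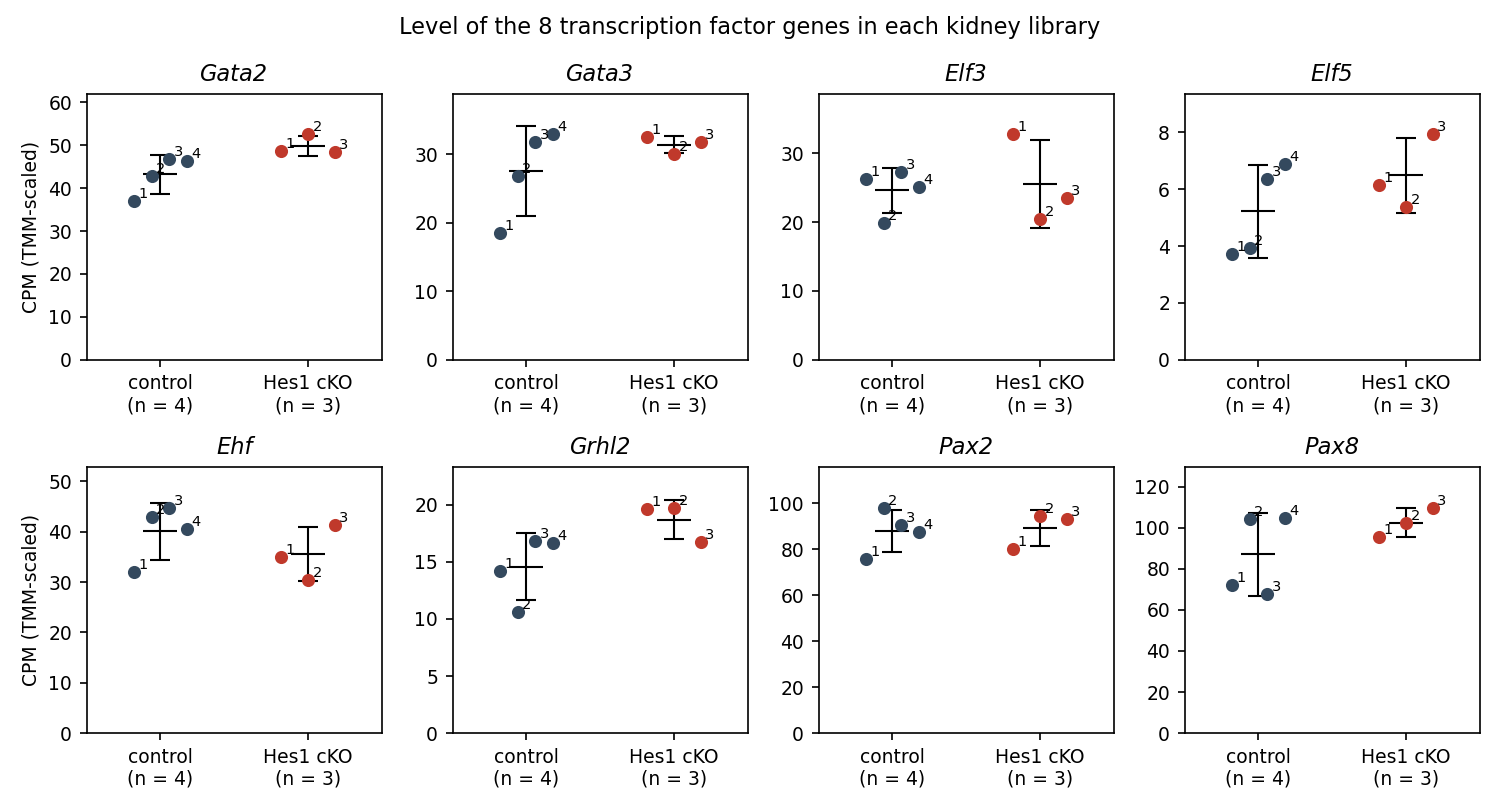
Level of each gene in CPM in the 4 control and 3 Hes1 cKO libraries, numbered by column, with the group mean and SD as bars. Only the Gata2 panel has all Hes1 cKO libraries (48.4 to 52.6 CPM) above all controls (36.9 to 46.8 CPM).

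The GATA factors bind the sequence that gives them their name through paired zinc fingers. Gata2 (ENSMUSG00000015053, GRCm38 chr6:88193891-88207032) was at 48.8, 52.6 and 48.4 CPM in Hes1 cKO 1, 2 and 3 and at 36.9, 42.8, 46.8 and 46.3 CPM in control 1, 2, 3 and 4. All 3 Hes1 cKO libraries lay above all 4 controls, by a narrow gap between Hes1 cKO 3 and control 3. Gata2 was the 1 gene of the 8 whose groups did not overlap, as was so for 7.01% of all tested genes (3.71% higher and 3.29% lower in Hes1 cKO). The means were 49.9 ± 2.35 CPM (SD, n = 3) and 43.2 ± 4.54 CPM (SD, n = 4). This is a log2 fold change of 0.21 (SE 0.10, 95% interval -0.01 to 0.43), with an edgeR adjusted p of 0.872. The exact two-sided permutation test over the 35 ways to divide 7 libraries into groups of 3 and 4 gave p = 0.0857, where the smallest p it can give is 0.0286. Without control 1, the lowest library, the log2 fold change was 0.14.

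Gata3 (ENSMUSG00000015619, chr2:9857078-9890034) is required for outgrowth of the nephric duct and stays on in the collecting duct. It was at 32.5, 30.02 and 31.8 CPM in Hes1 cKO 1, 2 and 3 and at 18.5, 26.9, 31.8 and 33.0 CPM in control 1, 2, 3 and 4. The Hes1 cKO libraries lay close together and inside the range of the controls, whose spread came mostly from control 1. Between the groups the log2 difference was 0.19 (SE 0.18, 95% interval -0.21 to 0.59, edgeR adjusted p 0.962, exact permutation p = 0.486). Without control 1 it was 0.04, and without control 4 it was 0.29. Gata3 is also expressed by T cells and Gata2 by endothelium, mast cells and sympathetic neurons. The 5 T cell markers summed to 0.529 to 0.841 CPM in Hes1 cKO and 0.688 to 1.54 CPM in control, and the mast cell markers found in the table to at most 1.42 CPM in any library, so these listed markers were near 0. Cd8a and Trac, T cell genes picked after the values had been seen, had higher means in control. Cd8a averaged 3.48 CPM in Hes1 cKO (SD 0.516, n = 3) and 13.4 CPM in control (SD 7.77, n = 4, edgeR adjusted p 0.237). Trac averaged 0.416 against 1.07 CPM (edgeR adjusted p 0.661), and the groups did not overlap for either gene. Cd3e, from the listed markers, averaged 0.119 CPM in Hes1 cKO and 0.138 CPM in control, far below Cd8a. Whether the Cd8a reads come from T cells was not tested. Cpa3, a mast cell protease gene, had 0 reads in all 3 Hes1 cKO libraries and 2, 6, 1 and 0 in control 1, 2, 3 and 4, too few to test. Tpsb2, the 1 mast cell marker tested, was at 0.317, 0.198 and 1.29 CPM in Hes1 cKO 1, 2 and 3. In control it was at 0.371 to 1.31 CPM. The 6 endothelial markers summed to 203 to 272 CPM in Hes1 cKO and 233 to 264 CPM in control. Of those 6, 0 were called, and Emcn alone had groups that did not overlap, lower in Hes1 cKO. The adrenal and sympathetic genes were high in control 1, the library lowest for both GATA factors, and in Hes1 cKO 3. The part of these other cells in the GATA values was not tested.

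Within a library, Gata3 stood at 0.666, 0.570 and 0.657 of the Gata2 count in Hes1 cKO 1, 2 and 3 and at 0.502, 0.628, 0.679 and 0.712 of it in control 1, 2, 3 and 4. The ratios of the groups overlapped over nearly their whole range. The mean difference between the groups in log2 ratio was 0.0072, with an exact permutation p of 1.

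The ETS factors Elf3, Elf5 and Ehf share a DNA-binding domain that recognises a GGAA core. Ehf and Elf5 are neighbours on chromosome 2, pointing away from each other with 108409 bases and 0 annotated protein-coding genes between them in GENCODE M21. Elf3 (ENSMUSG00000003051, chr1:135253575-135258568), which responds to inflammatory signals in many epithelia, was at 32.8, 20.5 and 23.5 CPM in Hes1 cKO 1, 2 and 3. In control 1, 2, 3 and 4 it was at 26.3, 19.9, 27.2 and 25.2 CPM. Hes1 cKO 1 was the highest of the 7 libraries and the other Hes1 cKO libraries lay within the controls. The log2 difference of 0.05 (SE 0.17, 95% interval -0.34 to 0.44, edgeR adjusted p 0.993, exact permutation p = 0.914) turned to -0.17 without Hes1 cKO 1 and to -0.04 without control 2. Elf3 is also a gene of the urothelium that lines the renal pelvis. The 6 urothelial markers summed to 66.7 CPM in Hes1 cKO 1, above the 38.6 to 49.6 CPM of the other libraries. None of these 6 was called, and Upk1a alone had groups that did not overlap, higher in Hes1 cKO. The sum of the 4 mesangial and stromal markers was also highest in Hes1 cKO 1, at 400 CPM, where the other 6 libraries had 166 to 343 CPM. Among these markers Itga8 was not highest there, at 7.51 CPM against 8.09 in control 1 and 8.90 in control 4. The part of urothelial and stromal cells in the Elf3 value was not tested.

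Elf5 (ENSMUSG00000027186, chr2:103411688-103450989), a gene of principal cells that acts on Aqp2, was the least counted of the 8, with 65 to 135 reads per library. It was at 6.14, 5.39 and 7.94 CPM in Hes1 cKO 1, 2 and 3 and at 3.73, 3.92, 6.37 and 6.88 CPM in control 1, 2, 3 and 4. The first pair of controls was low and the other pair was level with the Hes1 cKO libraries. Elf5 had a log2 fold change of 0.31 (SE 0.26, 95% interval -0.27 to 0.89, edgeR adjusted p 0.959), the widest interval of the group. The 3 libraries with high Xist held the 3 highest values. Hes1 cKO was above control within the libraries of low Xist and within those of high Xist. This was also so for Gata2 among the 8, and for 6.9% of all tested genes. With the Xist level as a covariate the log2 fold change was 0.46, with an unadjusted edgeR p of 0.0219, an adjusted p of 0.600 and so no call. Leaving out Hes1 cKO 3, control 1 or control 2 brought the value without the covariate down to 0.14, 0.18 and 0.19. Leaving out Hes1 cKO 2, control 3 or control 4 brought it up to 0.43, 0.42 and 0.47.

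Ehf (ENSMUSG00000012350, chr2:103263433-103303278), a factor of differentiated epithelium, was the 1 gene of the 8 with a value below 0. It was at 35.02, 30.5 and 41.2 CPM in Hes1 cKO 1, 2 and 3 and at 32.0, 43.0, 44.8 and 40.5 CPM in control 1, 2, 3 and 4. The groups overlapped, since control 1 sat between the lower Hes1 cKO libraries and Hes1 cKO 3 between the other controls. The log2 value for Ehf was -0.17 (SE 0.14, 95% interval -0.49 to 0.15, edgeR adjusted p 0.959, exact permutation p = 0.343), which was -0.29 without Hes1 cKO 3 and -0.07 without Hes1 cKO 2.

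Set against its neighbour, Elf5 was at 0.175, 0.177 and 0.193 of the Ehf count in Hes1 cKO 1, 2 and 3 and at 0.117, 0.0911, 0.142 and 0.170 of it in control 1, 2, 3 and 4. Here the groups did not overlap, with control 4 just under Hes1 cKO 1. The mean log2 ratio was -2.29 ± 0.05 (SD, n = 3) against -2.75 ± 0.32 (SD, n = 4). That is a difference of 0.46, with an exact permutation p of 0.0571, which misses the threshold. The Elf3 to Ehf ratio differed by 0.20 on the log2 scale (exact permutation p = 0.429), less than the SD of either group, and by 0.01 without Hes1 cKO 1. These are 2 of the 4 ratios compared.

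**Figure D2:**
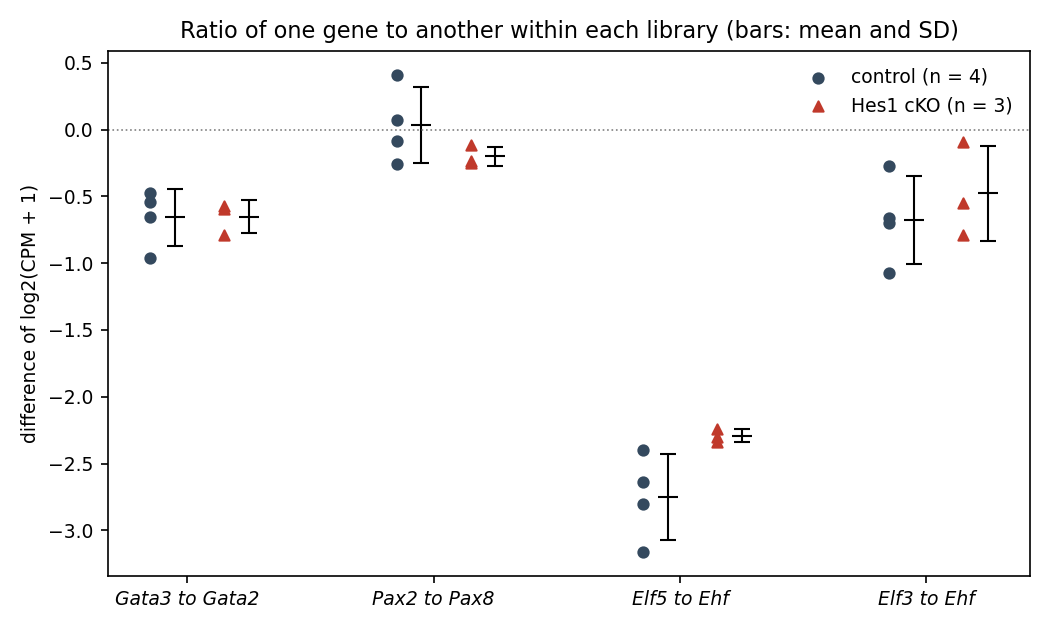
Difference of log2(CPM + 1) between a pair of genes in each library, for the 4 pairs compared, with the group mean and SD as bars. Elf5 to Ehf is the pair whose groups do not overlap, with Hes1 cKO libraries from -2.34 to -2.24 and controls from -3.16 to -2.40.

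Grhl2 (ENSMUSG00000022286, chr15:37233036-37363569) activates junction genes such as Cdh1, Cldn4 and Rab25 in duct cells. It was at 19.6, 19.7 and 16.7 CPM in Hes1 cKO 1, 2 and 3 and at 14.2, 10.6, 16.9 and 16.7 CPM in control 1, 2, 3 and 4. Hes1 cKO 1 and 2 were above every control, while Hes1 cKO 3 was level with control 3 and control 4. The log2 fold change of 0.36 (SE 0.16, 95% interval -0.01 to 0.73) was the highest of the 8, with an edgeR adjusted p of 0.844 and an exact permutation p of 0.143. Without control 2, the lowest library, it was 0.23. The annotated gene Gm16136 lies on the opposite strand and shares 169 bases of exon with Grhl2. It was at 5.14 to 8.02 CPM. Without a stated strand setting, reads on these shared bases, out of 8613 bases of Grhl2 exon, cannot be told apart.

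Pax2 (ENSMUSG00000004231, chr19:44756045-44837871) had the smallest difference of the 8. It was at 80.2, 94.3 and 92.9 CPM in Hes1 cKO 1, 2 and 3 and at 75.6, 98.0, 90.3 and 87.6 CPM in control 1, 2, 3 and 4. The highest and the lowest library were both controls. On the log2 scale the groups differed by 0.02 (SE 0.11, 95% interval -0.22 to 0.26, edgeR adjusted p 0.996, exact permutation p = 0.83).

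Pax8 (ENSMUSG00000026976, chr2:24420560-24475599) is the gene whose promoter drives the activator. It was at 95.3, 102 and 110 CPM in Hes1 cKO 1, 2 and 3 and at 71.9, 104, 67.6 and 105 CPM in control 1, 2, 3 and 4. The controls fell apart into a low pair, control 1 and 3, and a high pair, control 2 and 4, which were level with the Hes1 cKO libraries. The low pair shared neither the Xist level nor the adrenal RNA. The means were 103 ± 7.24 CPM (SD, n = 3) and 87.1 ± 20.1 CPM (SD, n = 4). Pax8 thus differed by 0.23 on the log2 scale (SE 0.16, 95% interval -0.13 to 0.60, edgeR adjusted p 0.942, exact permutation p = 0.343). This ranged from 0.13 without control 3 to 0.34 without control 4. Whether reads of the transgene can fall on Pax8 was not tested.

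The paired-box genes are both expressed in tubules, and their balance was read in each library. Whole kidney RNA does not tell from which segments the reads of either gene came. Pax2 stood at 0.841, 0.921 and 0.846 of the Pax8 count in Hes1 cKO 1, 2 and 3 and at 1.05, 0.942, 1.34 and 0.836 of it in control 1, 2, 3 and 4. The Hes1 cKO values lay inside the wide range of the controls. The log2 ratio differed by -0.24 (exact permutation p = 0.286) and by -0.11 without control 3.

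**Figure D3:**
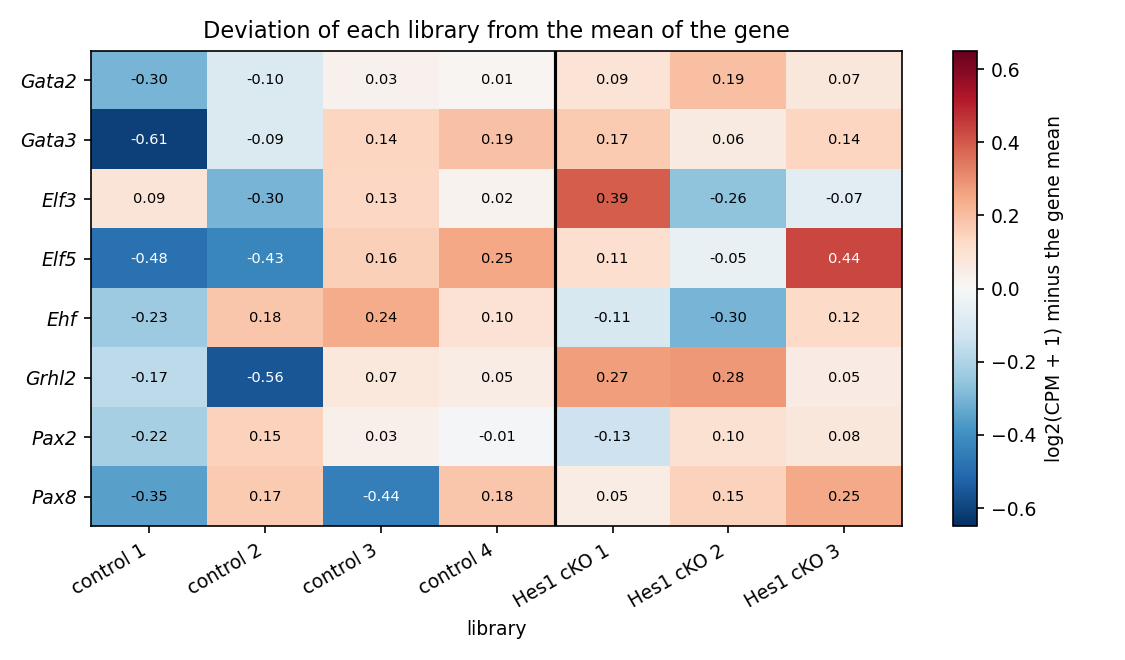
Each cell is log2(CPM + 1) of a gene in a library minus the mean of the gene over the 7 libraries, blue below and red above. Control 1 was below the mean of the gene for 7 of 8 genes, all except Elf3.

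The control libraries differed from one another across the 8 genes, and how much of the spread goes with genotype was not tested. Averaged over the 8 genes, log2(CPM + 1) in control 1 lay 0.29 below the mean of the gene (-0.29), and control 1 was the lowest library for 4 of them. Control 2 was at -0.12 and the lowest for 2. The other controls were at 0.04 and 0.10, next to 0.10, 0.02 and 0.13 in Hes1 cKO 1, 2 and 3. Control 1 also had 664 CPM of the adrenal and sympathetic genes, the highest sum of the 4 proximal tubule markers (9260 CPM) and the lowest of the 9 intercalated cell markers (470 CPM). Their part in the low values was not tested. With the adrenal RNA as a covariate, an alternative chosen after seeing the data, 0 of the 8 genes were called. In that fit Gata2 and Grhl2 had unadjusted edgeR p-values of 0.0272 and 0.0288, each with an adjusted p of 0.789. The share of all genes with an unadjusted p under 0.05 in it was not counted.

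Levels of different genes can be compared only per length, so CPM were divided by the kilobases of exon in GENCODE M21. In control the order of means ran Pax2 (16.3 ± 1.72 CPM per kilobase), Pax8 (14.4 ± 3.32), Elf3 (11.1 ± 1.48), Gata2 (8.01 ± 0.84), Ehf (7.18 ± 1.02), Gata3 (6.92 ± 1.65), Grhl2 (1.69 ± 0.34) and Elf5 (0.889 ± 0.28), each as SD over n = 4. Neighbours whose control ranges overlapped were Pax2 and Pax8, Pax8 and Elf3, Gata2 and Ehf, and Ehf and Gata3. The steps from Elf3 to Gata2, from Gata3 to Grhl2 and from Grhl2 to Elf5 were between genes whose control ranges did not overlap. In Hes1 cKO the order of Pax2 and Pax8 and that of Ehf and Gata3 were exchanged. Gata3 (7.90 ± 0.32, SD, n = 3) then lay above Ehf (6.38 ± 0.97) with no overlap, at 7.55 to 8.17 against 5.46 to 7.39 CPM per kilobase. In the controls 1 library had Gata3 above Ehf. These lengths sum every annotated exon, and isoforms in use may be shorter.

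**Figure D4:**
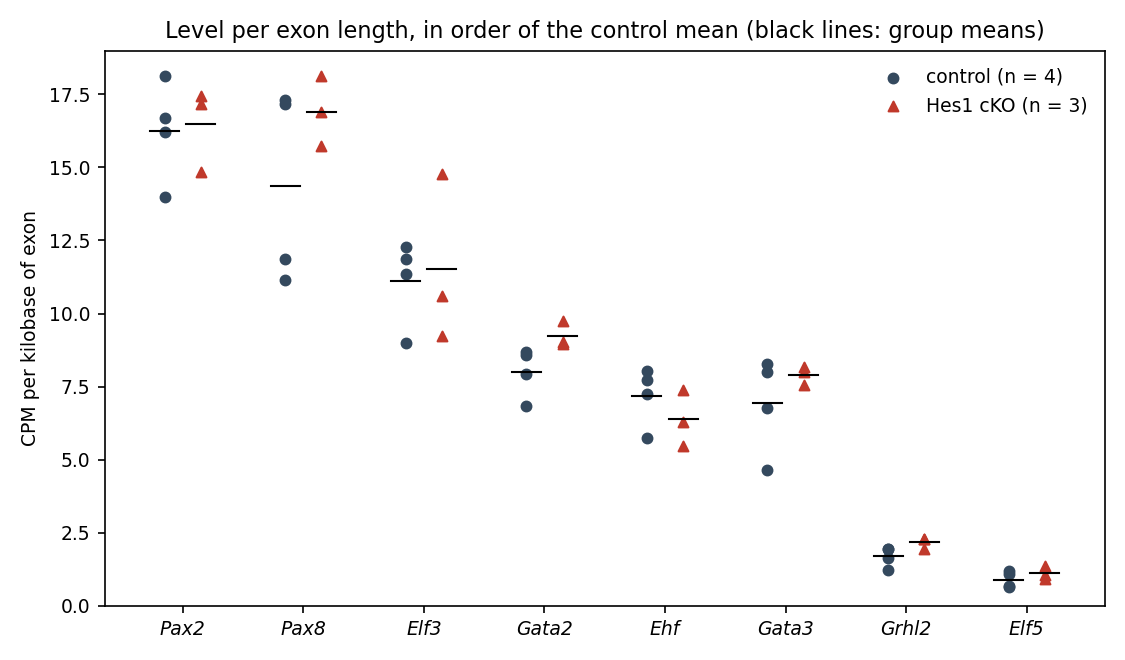
Level of each gene in CPM per kilobase of exon in the 4 control and 3 Hes1 cKO libraries, in order of the control mean, with group means as lines. Grhl2 and Elf5 stay at or under 2.29 CPM per kilobase in every library, and Pax2 and Pax8 reach 18.1.

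The relatives of the 8 genes were read next, since a paralog can stand in for another. Of 17 paralogs of the GATA, ETS, grainyhead-like and Pax families, 7 were tested and 0 were called, with a median log2 fold change of 0.14. Pax3, Pax4 and Pax7 had no row in the table, and Gata1, Gata4, Spdef, Pax1, Pax5, Pax6 and Pax9 were too low to test. The smallest p-values in this list were those of Elf4, at 4.82 to 7.30 CPM against 3.88 to 5.82 CPM in control (log2 fold change 0.46, edgeR adjusted p 0.859), and Grhl1 (0.24, 0.974). Of 4 cofactors 0 were called. Zfpm1, which binds GATA factors, was at 22.4, 21.1 and 15.1 CPM against a mean of 14.6 CPM in control, with Hes1 cKO 3 inside the control range (log2 fold change 0.42, edgeR adjusted p 0.693). Zfpm2 was at -0.27 (0.984).

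Among 21 other tubule and duct transcription factors 1 was called, Foxi1, and 7 were above 0, with a median of -0.06. Foxi1 was at 134, 118 and 108 CPM in Hes1 cKO 1, 2 and 3 and at 26.5 to 39.9 CPM in control (log2 fold change 1.87, edgeR adjusted p 6.34e-04). Tfcp2l1, which is expressed across the duct and acts in intercalated cell differentiation, was at 634, 640 and 588 CPM against 484 to 527 CPM in control. Its groups did not overlap, and its log2 fold change of 0.28 (SE 0.08) was not called (edgeR adjusted p 0.512). The remaining factors of this list ran from Hoxd10 at -0.28 to Klf5 at 0.17, and none of them was called.

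**Figure D5:**
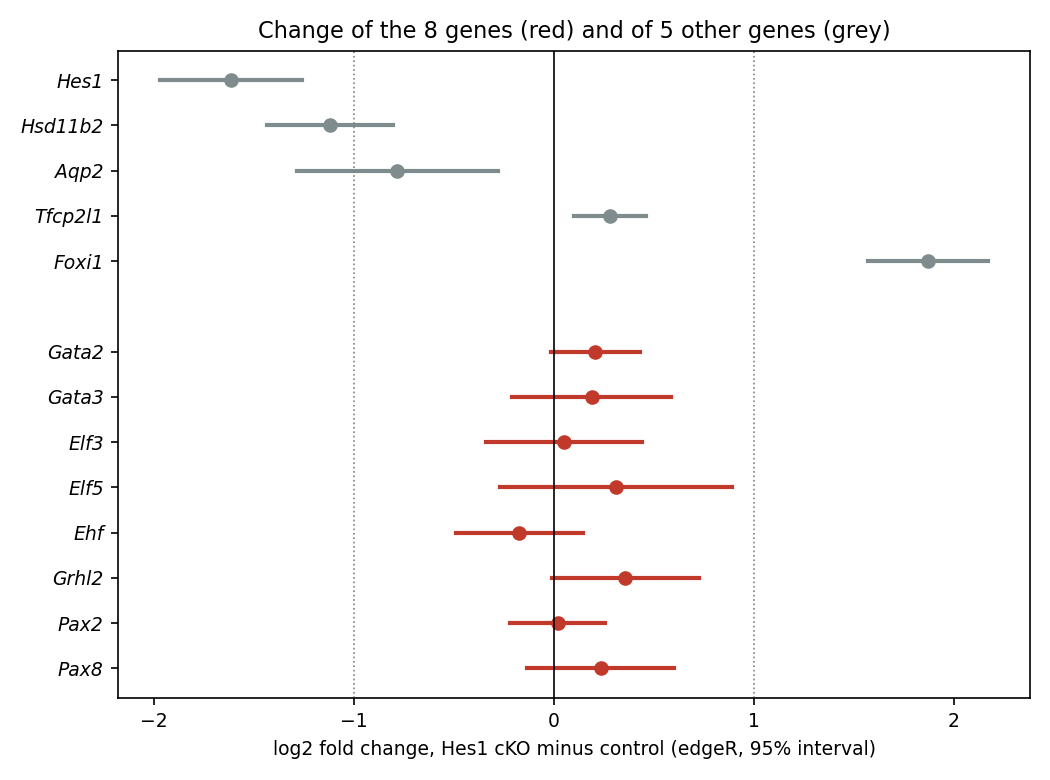
Log2 fold change of each gene with its 95% interval from edgeR, the 8 genes in red and 5 others in grey, with dotted lines at a 2-fold change. All 8 red intervals cross 0 and end inside the dotted lines. The 5 grey intervals do not reach 0, for Foxi1 (1.87), Hes1 (-1.61), Hsd11b2 (-1.12), Aqp2 (-0.78) and Tfcp2l1 (0.28). Of these, Aqp2 and Tfcp2l1 were not called.

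Genes that these factors are reported to regulate were set beside them. Of 8 such genes 7 were tested and 0 were called, 2 above 0, with a median log2 fold change of -0.03. Aqp2 was at 486, 399 and 737 CPM in Hes1 cKO 1, 2 and 3 and at 682 to 1107 CPM in control (log2 fold change -0.78, SE 0.22, edgeR adjusted p 0.512). Per count of Gata2 there were 9.97, 7.59 and 15.2 counts of Aqp2 in Hes1 cKO and 24.6, 15.9, 23.6 and 22.1 in control. Per count of Elf5 there were 79.3, 74.1 and 92.8 against 244, 174, 174 and 148. Both ratios were lower in every Hes1 cKO library than in every control, and were chosen after the values had been seen, so no test is given. Cldn4 per count of Grhl2, computed in the same way, overlapped between the groups, at 3.70, 3.39 and 2.87 in Hes1 cKO and 2.35, 3.66, 2.86 and 2.37 in control. Avpr2, the vasopressin receptor gene upstream of Aqp2, had 0 to 6 reads per library and did not pass the filter on low counts. Why its count was so low was not tested.

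Of the Grhl2 targets, Cldn4, a claudin of the duct, was at 72.5, 66.9 and 47.9 CPM in Hes1 cKO 1, 2 and 3 and at 33.3, 38.7, 48.2 and 39.5 CPM in control 1, 2, 3 and 4. Hes1 cKO 3, the library with the lowest Grhl2 of its group, was also the lowest there for Cldn4 and level with control 3. The log2 fold change was 0.64 (SE 0.16, 95% interval 0.29 to 1.00, edgeR adjusted p 0.327, exact permutation p = 0.0857). Cdh1, the epithelial cadherin (0.15, edgeR adjusted p 0.942), and Rab25, a recycling GTPase (-0.03, 0.996), had intervals that included 0. Ovol2, a repressor downstream of Grhl2, was at 0.941 to 1.04 CPM in Hes1 cKO and 0.873 to 1.81 CPM in control, from 16 to 33 reads per library (log2 fold change -0.54, SE 0.31, edgeR adjusted p 0.934). Ret, the receptor that GATA and Pax factors switch on in the nephric duct, was at 0.588 to 1.72 CPM in all 7 libraries with a log2 fold change of -0.01 (SE 0.45). Slc14a2, the urea transporter gene reported to depend on Pax2 and Pax8, was at 51.9 to 91.9 CPM against 41.0 to 102 CPM (log2 fold change -0.04, SE 0.29). Both 95% intervals included a change of 1.5-fold in either direction.

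Markers of the duct's cell types were read in the same libraries. These lists were chosen with earlier results of these data known, so their counts are a description only. Of all tested genes 0.339% were called, and 48.4% were above 0. Of 9 intercalated cell markers 8 were called, all higher. The sum of these markers was 1360 to 1480 CPM in Hes1 cKO against 470 to 625 CPM in control. Of 7 tested principal cell markers 1 was called, Hsd11b2, and 7 were below 0. The sum over this list was 759 to 1210 CPM against 1240 to 1890 CPM. A difference in change between these lists and the 8 genes was not tested.

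Finally, the tested genes whose profile over the 7 libraries was most like each of the 8 were found among 14143 others with a mean of at least 1 CPM. Likeness was the root mean square difference of log2(CPM + 1), each gene centred on its own mean, and a low value means alike. For Pax2 these were Ggnbp2 (0.02) and Tiprl (0.02), and for Gata2 Tnfaip3 (0.03) and Diap1 (0.04). For Ehf they were Tspan12 (0.04) and B3glct (0.05), and for Gata3 Gm28875 (0.05) and 9430038I01Rik (0.09). Pax8 was nearest to Mnd1 (0.06) and Ctdspl2 (0.08), Grhl2 to Fam171a2 (0.07) and ENSMUSG00000108207 (0.08), Elf3 to Ehd2 (0.07) and Dysf (0.07), and Elf5 to Ddx60 (0.08) and Hgfac (0.08). None of the 8 was among the nearest 2 genes of another. The closest pair within the group was Gata2 and Pax2 (0.14), and Elf3 was farthest from the rest, with its nearest, Grhl2, at 0.26. Pax2 itself lay 0.12 and Elf3 0.22 from a flat profile, nearer than either lay to any other of the 8. The libraries share depth and scaling, and with 7 points such nearness is a description only.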

How the data were processed

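RNA of whole kidneys was read as 150 bp pairs, per the labels. The authors deposited raw read counts per gene, with no normalization. The submitters' processing notes name FastQC, STAR and DESeq2 and the builds mm10 and GRCm38; not given in the sources used here are the counting program, strand setting and gene annotation. A further table has 9 columns whose names show no genotype, and it was left out.

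Counts of 7 libraries (3 Hes1 cKO, 4 control) were filtered with filterByExpr (minimum count 10), scaled by TMM and tested with edgeR's quasi-likelihood test (edgeR 4.0.16, R 4.3.3), without covariates. P-values were adjusted by Benjamini-Hochberg over all 15615 tested genes, and called under 0.05. The fitting script was tested on simulated counts. Standard errors and 95% intervals were derived from the F statistic. Exact two-sided permutation tests used log2(CPM + 1). Alternatives used DESeq2 1.42.0, limma 3.58.1, other scalings, filters and covariates. Coordinates and exon lengths come from GENCODE M21 (GRCm38). Depth bounds only counting error, since reads carry no molecular identifiers.

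The 8 genes and all lists were chosen with earlier results of these data known. Named are Hes1, the 8 genes, 7 reported targets, called list genes, the 2 smallest p-values of 3 lists (paralogs, other factors, cofactors) and the 2 profiles most like each gene. Ovol2, Hoxd10, Klf5, Cd8a and Trac were named after their values were seen. Other genes are named for cell type markers, for the split of the libraries by Xist or for position.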

Additional observations from a re-analysis of the deposited data

How the results depend on the processing

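None of the 8 genes was called in any of the 16 alternatives, and Hes1 was called in all of them, at -1.80 to -1.51. The 2 adrenal alternatives were chosen after seeing the data. The count of 53 called genes was 127 with DESeq2's Wald test, 102 without a low-count filter, and 25 (without Hes1 cKO 2) to 47 when a library was left out, with 27 without Hes1 cKO 1. It was 220 when the 3 libraries with most adrenal RNA were left out. That fit sets 2 Hes1 cKO libraries with low Xist against 2 controls with high Xist, which cannot be told apart from genotype, and in it the log2 fold changes of Gata3 (-0.049), Elf5 (-0.20) and Pax2 (-0.025) turned sign and Ehf (-0.38) had an unadjusted p of 0.0143. Leaving out 1 library turned the sign of Elf3 (-0.17 to 0.19), Pax2 (-0.045 to 0.089) and the Gata3 to Gata2 ratio (-0.093 to 0.0765). With Xist as a covariate the unadjusted edgeR p was 0.0219 for Elf5, 0.0326 for Grhl2 and 0.0450 for Gata2. Their edgeR adjusted p-values in that fit were 0.600, 0.629 and 0.671, and 66 genes were called over all tested genes. The share of all genes with an unadjusted p under 0.05 in that fit was not counted. No paired analysis was possible because the running numbers in the column names pair no library of one group with one of the other. Few reads limit Avpr2 (0 to 6 per library), Ret (10 to 30), Ovol2 (16 to 33) and, among the 8 genes, Elf5 (65 to 135).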

Other observations

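Elf5 was the 1 gene of the 8 for which all libraries with high Xist (7.94, 6.37 and 6.88 CPM) lay above all libraries with low Xist (6.14, 5.39, 3.73 and 3.92 CPM), a pattern that 5.95% of all tested genes showed in this direction. It was noticed after the values had been seen, the labels tie no sex to a column, and the difference between Xist levels was not tested. Ddx3y split the libraries the same way as Xist, in the opposite direction.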
